A study of Rattus norvegicus with 9 samples.

Results

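The genes described here are 76 components of the Wnt, Notch and bone morphogenetic protein (BMP) pathways, with the related transforming growth factor beta (TGF-beta) genes, in cultured oligodendrocyte progenitors of newborn rats. They were chosen by symbol alone, as every gene of the array whose name belongs to the Wnt, frizzled, dickkopf, secreted frizzled-related, Notch, Delta-like, Jagged, BMP, activin receptor, Smad, TGF-beta, chordin or gremlin families, or is 1 of a few named partners such as Ctnnb1 and Nog. They are 76 of 12167 genes and carry 120 of 16865 probes with a single gene symbol. RNA was measured on 9 arrays of 1 colour, with 3 arrays for each of 3 sorted populations. Cells of the O4 population carried the antigen O4 but not NG2, those of the NG2/A2B5 population carried both NG2 and A2B5, and those of the NG2 population carried NG2 alone. All came from newborn rats, and the labels name no treatment or genotype. The arrays of each population carry the numerals I, II and III. The study made 3 cultures, but nothing in the labels ties a numeral to a culture, so p-values measure only the spread between these arrays, which may be technical.

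Wnt ligands bind frizzled receptors with the co-receptors LRP5 and LRP6 and stabilise beta-catenin, which acts with LEF and TCF proteins in the nucleus. Notch receptors are cleaved after binding Delta-like or Jagged ligands on a neighbouring cell, and the released fragment acts with RBPJ and Mastermind proteins. BMP and TGF-beta ligands assemble paired receptors that phosphorylate Smad proteins. In oligodendrocyte progenitors these pathways are best known as brakes on differentiation: BMPs turn progenitors toward astrocytes, Notch1 activity holds them back, and sustained beta-catenin activity delays myelin gene expression.

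Levels are given as log2 of the authors' scaled probe intensity, and a gene is represented by its brightest probe. A value under the 25th percentile of all probes on its array, which lay between -2.29 and -1.97 on the log2 scale, was treated as near background. By this measure 52 of the 76 genes were above background on every array, against 8899 of 12167 genes in all (68.4% and 73.1%). Most of the signal-receiving and intracellular side was present throughout: all 7 Wnt transducers, all 4 Notch receptors, all 9 BMP, activin and TGF-beta receptors, 8 of 10 Wnt receptors and co-receptors and 5 of 7 Smads were above background on all 9 arrays. Of 3 Notch nuclear partners only Maml1 was. The secreted side was measured less completely, apart from the BMP antagonists, of which 3 of 4 were above background on every array. Of 6 Wnt ligands only Wnt2b was above background on every array, of 6 secreted Wnt inhibitors only Dkk4, of 5 Notch ligands Jag1 and Dll3, and of 9 BMP and TGF-beta ligands 5. Only Wnt4 was at or under the 25th percentile on all 9 arrays. A probe near background gives no evidence about the RNA beyond a low reading of that probe. Wnt7a, Wnt7b, Lgr4, Lgr5, Sfrp1, Dkk1, Bmpr1b, Tgfbr2 and Smad6 were not analysed here.

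**Figure D1:**
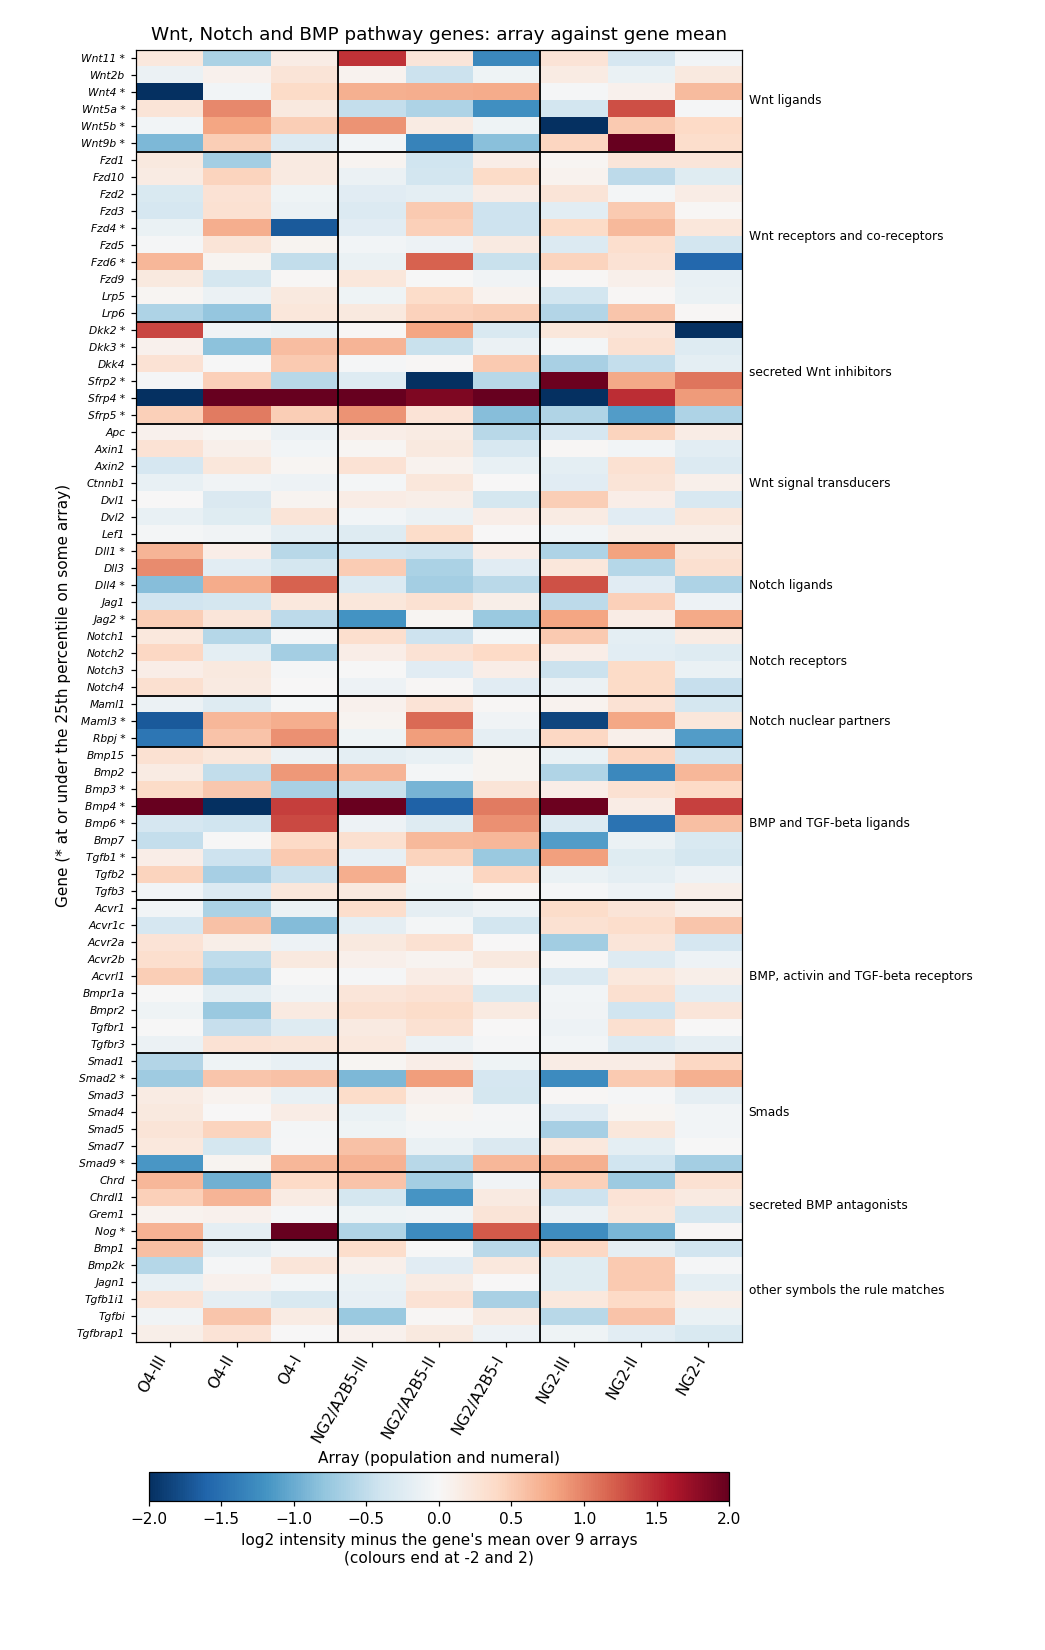
Level of each of the 76 genes on each array (columns, by population and then numeral) as log2 intensity minus the mean of that gene over the 9 arrays, grouped by role. Red is above and blue below the gene's own mean, colours end at -2 and 2, and an asterisk marks the 24 genes at or under the 25th percentile on some array, whose rows hold most of the deep colours.

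Markers of the labelled lineage were read on all arrays. Of 7 measured progenitor markers, 6 were above background on every array and Pdgfra on 8, and their summed intensity was 369 to 562 in O4 cells, 366 to 510 in NG2/A2B5 cells and 427 to 527 in NG2 cells. Of 5 measured mature oligodendrocyte markers, 3 were above background on every array and Mbp and Mog on 6 arrays each. Their sum overlapped between populations, at 176 to 279 in O4 cells, 190 to 271 in NG2/A2B5 cells and 173.5 to 235 in NG2 cells. This sum rests mostly on Cnp, with a mean log2 level of 7.64 over the arrays, where Mag, the next brightest, had 3.66. Cspg4, the gene of the NG2 proteoglycan, measured 7.27, 6.53 and 6.96 in O4 on arrays III, II and I, although these cells were labelled as negative for the protein, 7.53, 6.99 and 6.70 in NG2/A2B5 and 7.38, 7.19 and 7.08 in NG2. Of 8 microglial markers Itgam was above background on every array, Csf1r on 8 and Aif1 on 7, while C1qa, C1qb and C1qc were above it on 0, and the microglial sum was 6.87 to 9.72 in O4 cells, 5.04 to 6.59 in NG2/A2B5 cells and 5.45 to 6.71 in NG2 cells. Of 3 neuronal markers Nefl was above background on every array and Snap25 on 0, and the sums were at most 2.13. Of 4 endothelial markers Pecam1 and Cldn5 were above it on every array, with sums of at most 2.65. Of 6 pericyte and fibroblast markers the collagen genes Col1a1 and Col1a2 were above it on every array, and the sum was 21.4 to 26.1 in O4 cells, 22.6 to 27.1 in NG2/A2B5 cells and 22.7 to 32.8 in NG2 cells. Of 6 astrocyte markers, 3 were above background on every array, namely Aqp4, Aldh1l1 and Slc1a3, and Gfap was on 6 arrays. The astrocyte sum was 42.1 to 86.3 in O4 cells, 55.1 to 99.2 in NG2/A2B5 cells and 58.4 to 75.1 in NG2 cells. It rests mostly on Slc1a3, with a mean log2 level of 6.01, where Aqp4, the next brightest, had 0.36 and Gfap -1.77. In such bulk samples, fewer cells of a type and less RNA per cell cannot be told apart.

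The series sets each population against the other 2, and the first question was which pathway genes differ between O4 and NG2 cells. In O4 cells the secreted Wnt inhibitor Dkk4 had higher readings, and the receptor Acvr1 lower ones, than in NG2 cells. Of the other secreted Wnt inhibitors, Sfrp5 read higher, on readings all near background, and Sfrp2 lower, on readings partly near it. Smad1 read lower by its brightest probe but higher by another. None of the 76 genes passed the test. By limma, 0 of 76 members had a Benjamini-Hochberg adjusted p under 0.05, where 1 of 12165 genes did (0.00822%). At an unadjusted p under 0.05 there were 4 members, or 5.26% of members against 8% of all genes: 2 were higher (4.46% of all genes) and 2 lower (3.54%). The 3 arrays of each population did not overlap for 7 members (14% of all genes), of which Dkk4, Fzd10, Sfrp5 and Tgfbrap1 were higher and Acvr1, Sfrp2 and Smad1 lower in O4. The median difference of the 76 genes was -0.02, against 0.02 over all genes.

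Dkk4 encodes a secreted protein that binds LRP5 and LRP6 and blocks Wnt signalling. On arrays III, II and I, Dkk4 measured 2.47, 2.17 and 2.71 in O4, 2.16, 2.21 and 2.71 in NG2/A2B5, and 1.53, 1.70 and 1.98 in NG2. Every NG2 array read lower than every array of the other populations. The O4 minus NG2 difference was 0.71 (95% interval 0.19 to 1.24, adjusted p = 0.566), or 1.64-fold higher in O4. Within numerals III, II and I the difference was 0.93, 0.47 and 0.73.

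Sfrp5, a secreted frizzled-related protein that binds Wnts, had the smallest p in this comparison. Its probe measured -2.62, -2.05 and -2.61 in O4, -2.19, -2.83 and -3.95 in NG2/A2B5, and -3.69, -4.22 and -3.72 in NG2. The O4 and NG2 arrays did not overlap, with a difference of 1.45 (95% interval 0.47 to 2.44, adjusted p = 0.566), but 8 of its 9 readings were at or under the 25th percentile. With values raised to that percentile, the difference was 0.13. All O4 and NG2 readings of Sfrp5 lay under it, so this value is only the gap between the percentiles of those arrays.

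Smad1 carries the signal of activated BMP receptors to the nucleus. Its brightest probe measured 3.02, 3.52 and 3.45 in O4, 3.65, 3.73 and 3.52 in NG2/A2B5, and 3.75, 3.75 and 4.02 in NG2. The O4 minus NG2 difference was -0.51 (95% interval -0.93 to -0.10, adjusted p = 0.577), with every O4 array under every NG2 array. A dimmer Smad1 probe, also above background on every array, gave a difference of the other sign, 0.61 (95% interval 0.23 to 0.99), so the direction rests on the choice of probe. The dimmer probe measured 2.29, 2.30 and 2.66 in O4, 2.38, 2.46 and 2.29 in NG2/A2B5, and 1.89, 1.66 and 1.86 in NG2, and another probe was near background on all 9 arrays.

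**Figure D2:**
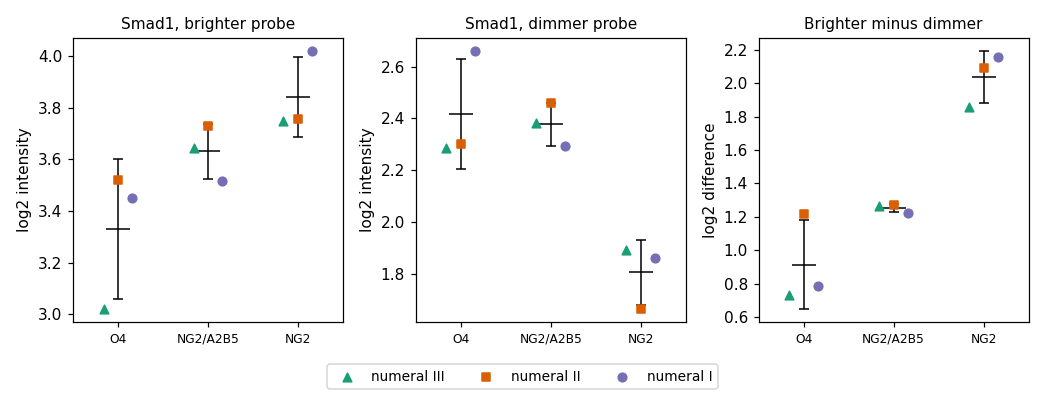
Log2 intensity of the brightest Smad1 probe and of a dimmer one, and the difference between them, by population (x axis), with a marker for each numeral, the mean as a horizontal bar and the SD as whiskers (n = 3 each). O4 lies under NG2 for the brighter probe and above NG2 for the dimmer one.

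Acvr1, a type I receptor for BMPs and activins, measured 5.06, 4.48 and 5.0 in O4, 5.46, 4.93 and 5.02 in NG2/A2B5, and 5.49, 5.38 and 5.24 in NG2. Its O4 minus NG2 difference was -0.52 (95% interval -1.03 to -0.01, adjusted p = 0.625), and the O4 arrays lay under the NG2 arrays without overlap. The mean of this probe and a second one, above background on 2 arrays, gave 0.26. Tgfbrap1, which binds TGF-beta receptors and also serves endosomal transport, measured 3.77 ± 0.13 in O4 cells, 3.71 ± 0.15 in NG2/A2B5 cells and 3.44 ± 0.11 in NG2 cells (SD, n = 3 each). Its difference was 0.33 (95% interval -0.02 to 0.68), the smallest of the 5 in size, with an adjusted p of 0.642.

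**Figure D3:**
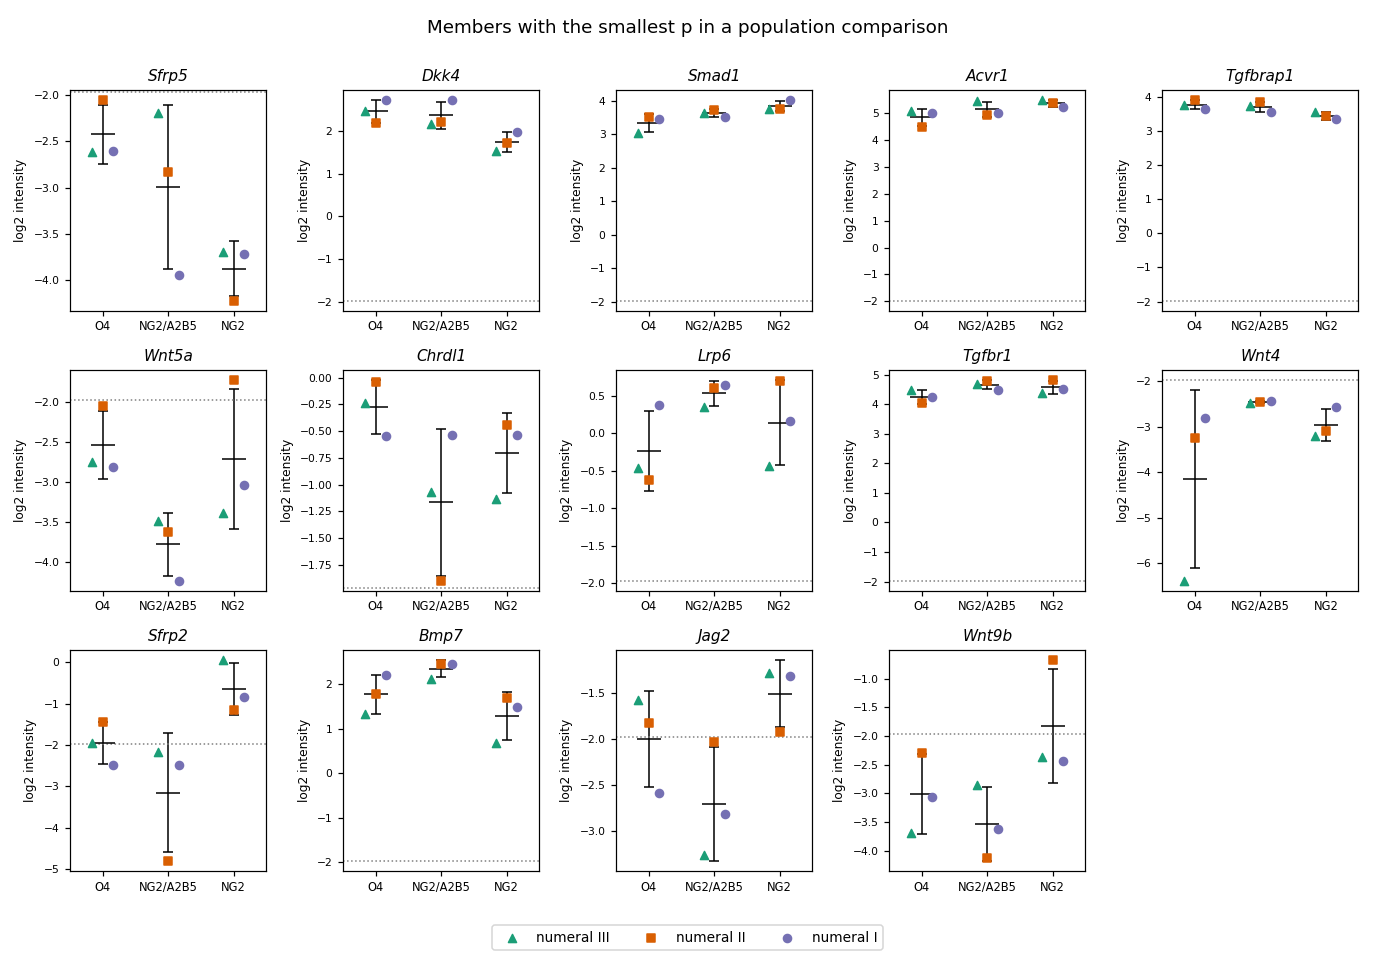
Log2 intensity of the 14 members with the smallest p in a population comparison, by population (x axis), with a marker for each numeral, the mean as a horizontal bar and the SD as whiskers (n = 3 each). The dotted line is the highest 25th percentile of the 9 arrays, -1.97. Dkk4, Smad1, Acvr1, Tgfbrap1, Tgfbr1 and Bmp7 lie well above it, while Sfrp5 and Wnt4 lie under it throughout.

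Between O4 and NG2/A2B5 the readings of the ligand Wnt5a and the BMP antagonist Chrdl1 were higher in O4, and those of Lrp6, Tgfbr1 and Wnt4 lower. By limma 0 of 76 members passed, where 1 of 12165 genes did (0.00822%), and 2 members had an unadjusted p under 0.05 (2.63%, against 3.28% of all genes). The arrays did not overlap for 6 members (8.76% of all genes): Smad5 and Wnt5a were higher in O4, and Ctnnb1, Maml1, Tgfbr1 and Wnt4 lower. Of the 9 BMP, activin and TGF-beta receptors, 1 had a difference above 0, against 53.2% of all genes, and their median was -0.11, against 0.02 over all genes.

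Chrdl1, a chordin-like protein that binds BMPs, measured -0.24, -0.04 and -0.55 in O4, -1.07, -1.90 and -0.54 in NG2/A2B5, and -1.13, -0.45 and -0.54 in NG2. The NG2/A2B5 II array, at -1.90, was the lowest. The O4 minus NG2/A2B5 difference was 0.89 (95% interval 0.05 to 1.72, adjusted p = 1.0), and it was 0.52 without that array. A second Chrdl1 probe, above background on 3 arrays, gave 0.85.

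Wnt5a, a ligand known mainly for signalling without beta-catenin, measured -2.75, -2.05 and -2.81 in O4, -3.48, -3.62 and -4.23 in NG2/A2B5, and -3.38, -1.73 and -3.03 in NG2. Its difference was 1.24 (95% interval 0.20 to 2.29, adjusted p = 1.0), on 1 reading above background among 9, and it was 0.14 with values raised to the 25th percentile. Wnt4 was near background on all arrays, and its difference of -1.69 (95% interval -3.62 to 0.24) rested on the O4 III array at -6.39: it was -0.57 without that array. With values raised to the 25th percentile, the Wnt4 difference was 0.14. For Wnt5a and Wnt4 alike, every O4 and NG2/A2B5 reading lay under that percentile. The 0.14 given for each is therefore only the gap between the percentiles of those arrays.

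Lrp6, a Wnt co-receptor, measured -0.46, -0.62 and 0.38 in O4, 0.35, 0.61 and 0.65 in NG2/A2B5, and -0.43, 0.70 and 0.17 in NG2. The O4 III, O4 II and NG2 III arrays were the only ones below 0, and the O4 minus NG2/A2B5 difference was -0.77 (95% interval -1.58 to 0.04). Tgfbr1, the type I TGF-beta receptor, measured 4.49, 4.03 and 4.23 in O4, 4.68, 4.80 and 4.50 in NG2/A2B5, and 4.39, 4.82 and 4.50 in NG2. Its O4 arrays all lay under its NG2/A2B5 arrays, with a difference of -0.41 (95% interval -0.84 to 0.02), its other bright probe gave -0.31, and the mean of its 4 probes, 2 of them near background, gave 0.11. Lrp6 and Tgfbr1 both had an adjusted p of 1.0.

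Between NG2/A2B5 and NG2, the ligand Bmp7 and the inhibitor Dkk4 had higher readings in NG2/A2B5, and Sfrp2, Jag2 and Wnt9b had lower ones. Again 0 of 76 members passed by limma, as did 0 of 12166 genes (0%), and 6 members had an unadjusted p under 0.05 (7.89%, against 4.48% of all genes). Of these 2 were higher (2.43% of all genes) and 4 lower (2.05%). The arrays did not overlap for 13 members, or 17.1%, against 10.2% of all genes. Higher in NG2/A2B5 were Acvr2b, Bmp7, Dkk4, Notch2, Sfrp4, Tgfb2 and Wnt4, and lower were Acvr1c, Jag2, Sfrp2, Smad1, Wnt5a and Wnt9b. The dimmer Smad1 probe was higher in NG2/A2B5 without overlap, by 0.57 (95% interval 0.19 to 0.95). Sfrp4 was above background on 2 of 9 arrays, and its NG2 III reading was at or below 0. This comparison and that of O4 with NG2 share the NG2 arrays.

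Bmp7 encodes a BMP ligand. Its levels were 1.33, 1.79 and 2.21 in O4, 2.13, 2.46 and 2.46 in NG2/A2B5, and 0.69, 1.69 and 1.5 in NG2. The 3 NG2/A2B5 arrays lay above the 3 NG2 arrays, with the O4 arrays between and overlapping both. The NG2/A2B5 minus NG2 difference was 1.06 (95% interval 0.32 to 1.80), or 2.09-fold higher, the largest among members above background on every array, with an adjusted p of 0.970. Within numerals III, II and I it was 1.44, 0.78 and 0.97. For Dkk4 the NG2/A2B5 minus NG2 difference was 0.62 (95% interval 0.10 to 1.14, adjusted p = 1.0).

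The 3 lower members read low in NG2/A2B5, where Sfrp2 and Jag2 were above background on 1 array each and Wnt9b on 0. Sfrp2, a secreted frizzled-related protein, measured -1.94, -1.44 and -2.47 in O4, -2.18, -4.80 and -2.47 in NG2/A2B5, and 0.05, -1.17 and -0.84 in NG2, above background on all 3 NG2 arrays. Its difference was -2.5 (95% interval -4.10 to -0.89), and -1.54 with values raised to the 25th percentile. Jag2, a Notch ligand, measured -1.57, -1.82 and -2.58 in O4, -3.26, -2.03 and -2.81 in NG2/A2B5, and -1.27, -1.92 and -1.31 in NG2, a difference of -1.2 (95% interval -2.10 to -0.30). Wnt9b, a Wnt ligand, differed by -1.71 (95% interval -3.05 to -0.36), with 1 of 9 readings, NG2 II at -0.68, above background. Their adjusted p-values were 0.970 each.

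Across the 3 populations together, 0 of 76 members passed the F test of limma, where 1 of 12165 genes did (0.00822%), and 6 had an unadjusted p under 0.05 (7.89%, against 5.37% of all genes). What the arrays could show is set by the spread between them. The 95% interval of a member's difference had a median width of 0.65 on either side. In O4 against NG2, the interval lay within a 2-fold change in both directions for 41 of 76 members, in O4 against NG2/A2B5 for 41, and in NG2/A2B5 against NG2 for 40, all of them among the 52 members above background on every array. For the other members the interval reached past a 2-fold change in at least 1 direction.

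**Figure D4:**
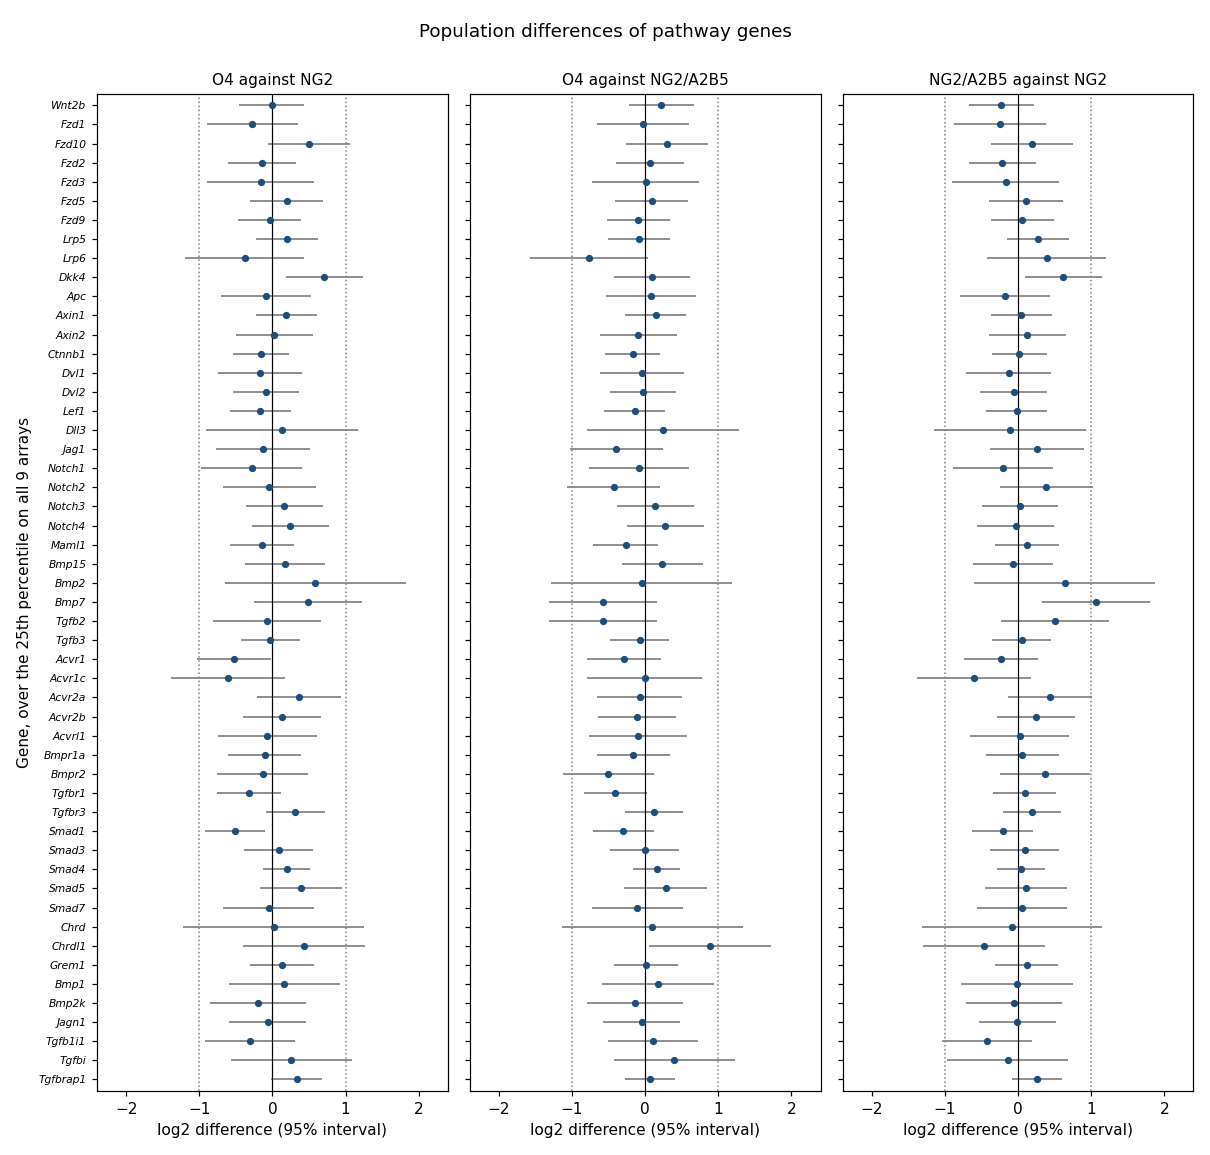
Log2 difference between populations (x axis, points) with its 95% interval (lines) for the 52 members above the 25th percentile on every array, for O4 against NG2, O4 against NG2/A2B5 and NG2/A2B5 against NG2. Dotted lines mark a 2-fold change. Intervals of most members lie between the dotted lines, and Bmp7 in NG2/A2B5 against NG2 has the largest difference, 1.06.

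The numeral accounted for more of the variance between arrays than the population, in the pathway genes as in all genes. For the median member the population took 19.2% of the variance and the numeral 30.8%, against 21.2% and 34.3% for the median gene. The numeral took the larger share in 47 of 76 members (61.8%, against 61% of all genes). Any grouping of so few arrays takes part of the variance even without an effect, and that part was not estimated. The shares therefore compare the numeral with the population and do not measure the effect of either. With the population as a term, 2 of 76 members passed between numerals III and II, and both were higher on the III arrays: Chrd and Notch1. Over all genes 3.55% passed, 1.64% as higher, so the members' share of 2.63% was near that of all genes. At an unadjusted p under 0.05 there were 14 members (18.4%, against 23.7%). Arrays did not overlap for 13 members (26.6% of all genes).

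Chrd encodes chordin, a secreted protein that binds BMPs and keeps them from their receptors. It measured 3.50 in O4 cells, 3.40 in NG2/A2B5 cells and 3.31 in NG2 cells on III, 1.87 in O4 cells, 2.15 in NG2/A2B5 cells and 2.10 in NG2 cells on II, and 3.23 in O4 cells, 2.75 in NG2/A2B5 cells and 3.13 in NG2 cells on I. In each population the II array was the lowest. The III minus II difference was 1.36 (95% interval 0.93 to 1.79, adjusted p = 0.0284), or 2.57-fold higher on III, and in O4, NG2/A2B5 and NG2 it was 1.62, 1.25 and 1.21. Between II and I the difference was -1.0 (95% interval -1.43 to -0.56, adjusted p = 0.0989).

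Notch1 encodes a Notch receptor. It measured 5.49 in O4 cells, 5.61 in NG2/A2B5 cells and 5.79 in NG2 cells on III, 4.70 in O4 cells, 4.86 in NG2/A2B5 cells and 5.08 in NG2 cells on II, and 5.25 in O4 cells, 5.22 in NG2/A2B5 cells and 5.43 in NG2 cells on I. Here too the II array was the lowest in each population and the III array the highest. The III minus II difference was 0.75 (95% interval 0.48 to 1.02, adjusted p = 0.0360), or 1.68-fold higher on III, and its other probe, also above background throughout, gave 0.65. Population differences of both genes were small: for O4 against NG2 they were 0.02 for Chrd and -0.29 for Notch1.

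Both calls rested on all 9 arrays. With any 1 array left out, Chrd kept a difference of 1.2 to 1.49 and Notch1 of 0.71 to 0.77, but the adjusted p was 0.0590 to 0.136 for Chrd and 0.0770 to 0.157 for Notch1. The progenitor marker sum was 510 to 562 on the III arrays, 369 to 427 on the II arrays and 366 to 429 on the I arrays, so that III stood above both while II and I overlapped. This sum rests mostly on the bright genes Bcas1 and Cspg4, which with Sox10 read highest on III in each population. Olig2 instead read lowest on III in each population, and the other progenitor markers were mixed. The other 6 marker sums overlapped between III and II: the astrocyte sum was 74.3 to 99.2 on III, 42.1 to 75.1 on II and 55.1 to 65.2 on I, and the pericyte and fibroblast sum was 22.8 to 27.1 on III, 26.1 to 32.8 on II and 21.4 to 22.7 on I. The part of these markers in the result was not tested.

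The promoters of Chrd and Notch1 are shown because these are the 2 members that passed the test. RefSeq promoter windows, 250 bases before to 50 after the gene start on assembly GRCr8, were matched for 59 of the 76 members. The windows are chr11:93685051-93685350 for Chrd and chr3:29721564-29721863 for Notch1, both on the minus strand, written 5′ to 3′ with motif matches in capitals.
Chrd: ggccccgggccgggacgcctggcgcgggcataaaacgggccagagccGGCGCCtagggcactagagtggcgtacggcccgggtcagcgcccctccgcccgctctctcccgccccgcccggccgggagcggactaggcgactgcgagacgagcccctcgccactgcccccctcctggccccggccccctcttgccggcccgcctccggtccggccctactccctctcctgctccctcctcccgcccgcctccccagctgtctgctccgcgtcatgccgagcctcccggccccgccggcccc
Notch1: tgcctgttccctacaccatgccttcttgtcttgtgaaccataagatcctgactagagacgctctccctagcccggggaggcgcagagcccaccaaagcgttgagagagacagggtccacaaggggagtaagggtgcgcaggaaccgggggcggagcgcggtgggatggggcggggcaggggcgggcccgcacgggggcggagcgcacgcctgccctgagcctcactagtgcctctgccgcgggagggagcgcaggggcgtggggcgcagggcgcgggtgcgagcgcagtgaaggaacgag
Both strands were searched for 3 motifs: CTTTGA, bound by TCF and LEF proteins, TGGGAA, bound by RBPJ, and GGCGCC, a GC-rich element bound by Smads in BMP-responsive genes. Chrd held 1 match, to GGCGCC, 203 bases before the start, and Notch1 held 0. Among all 33469 windows, 16.1% held CTTTGA, 25.7% held TGGGAA and 11% held GGCGCC. Among the 63 windows of members the shares were 6.35%, 28.6% and 33.3%, so a GGCGCC match is not particular to Chrd. The shares were not tested. The window of Chrd was 78.7% G and C and that of Notch1 69%.

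Next by p between III and II came Smad2, which carries TGF-beta and activin signals. It measured -2.18 in O4 cells, -2.36 in NG2/A2B5 cells and -2.73 in NG2 cells on III, -0.91 in O4 cells, -0.64 in NG2/A2B5 cells and -0.93 in NG2 cells on II, and -0.88 in O4 cells, -1.80 in NG2/A2B5 cells and -0.76 in NG2 cells on I. All III arrays were near background, and the difference of -1.60 (95% interval -2.38 to -0.82) had an adjusted p of 0.0610. Fzd3, a frizzled receptor, had a III minus II difference of -0.73 (95% interval -1.08 to -0.37, adjusted p = 0.0612).

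Between numerals II and I, 0 of 76 members passed by limma, where 28 genes did (0.23%), and 11 had an unadjusted p under 0.05 (14.5%, against 17.2%). Bmp6, a BMP ligand, measured -2.04 in O4 cells, -1.79 in NG2/A2B5 cells and -1.97 in NG2 cells on III, -2.10 in O4 cells, -1.95 in NG2/A2B5 cells and -3.17 in NG2 cells on II, and -0.37 in O4 cells, -0.78 in NG2/A2B5 cells and -1.09 in NG2 cells on I. In each population its I array was the highest. The II minus I difference was -1.66 (95% interval -2.33 to -0.99, adjusted p = 0.0890), but a second Bmp6 probe, near background on 3 arrays, gave 0.14. Noggin, the product of Nog, binds BMPs as chordin does. Nog measured -0.64 in O4 cells, -1.94 in NG2/A2B5 cells and -2.59 in NG2 cells on III, -1.51 in O4 cells, -2.60 in NG2/A2B5 cells and -2.26 in NG2 cells on II, and 0.89 in O4 cells, -0.11 in NG2/A2B5 cells and -1.32 in NG2 cells on I. Its I array was likewise the highest in each population, with a II minus I difference of -1.95 (95% interval -2.77 to -1.12, adjusted p = 0.0969). Arrays did not overlap for 18 members (21.7% of all genes).

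Between III and I, 0 of 76 members passed by limma, as did 0 of 12166 genes (0%), and 14 members had an unadjusted p under 0.05 (18.4%, against 12.6%). The smallest p belonged to Bmp1, a protease that cleaves chordin and procollagens and is no BMP ligand, which measured 3.28 in O4 cells, 3.04 in NG2/A2B5 cells and 3.10 in NG2 cells on III, 2.5 in O4 cells, 2.68 in NG2/A2B5 cells and 2.5 in NG2 cells on II, and 2.61 in O4 cells, 2.14 in NG2/A2B5 cells and 2.30 in NG2 cells on I. Its III minus I difference was 0.79 (95% interval 0.41 to 1.17, adjusted p = 0.242), a second bright probe gave 0.22, and the mean of its 4 probes gave -0.41. For Nog the difference was -1.54 and for Bmp6 -1.19. Arrays did not overlap for 13 members (18.5% of all genes).

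**Figure D5:**
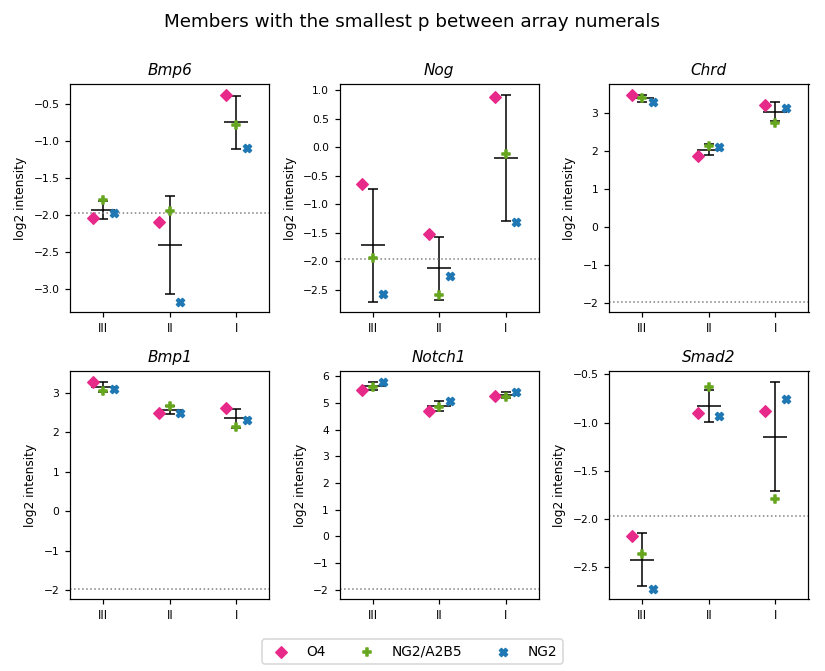
Log2 intensity of the 6 members with the smallest p between array numerals, by numeral (x axis), with a marker for each population, the mean as a horizontal bar and the SD as whiskers (n = 3 each). The dotted line is the highest 25th percentile of the 9 arrays, -1.97. Chrd and Notch1 are lowest on II in every population, and Bmp6 and Nog are highest on I.

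Of the remaining Wnt genes, 7 encode transducers. Ctnnb1, the gene of beta-catenin, measured 7.31 ± 0.04 in O4 cells, 7.48 ± 0.14 in NG2/A2B5 cells and 7.46 ± 0.24 in NG2 cells (SD, n = 3 each). Axin1 and Axin2, scaffolds of the complex that destroys beta-catenin, measured 4.71 ± 0.17 in O4 cells, 4.57 ± 0.26 in NG2/A2B5 cells and 4.52 ± 0.13 in NG2 cells, and 0.70 ± 0.28 in O4 cells, 0.79 ± 0.22 in NG2/A2B5 cells and 0.67 ± 0.31 in NG2 cells. These groups overlapped, except that Ctnnb1 was lower on each O4 array than on each NG2/A2B5 array, by -0.17 on average.

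Apc, another member of that complex, measured -0.14 ± 0.11 in O4 cells, -0.23 ± 0.41 in NG2/A2B5 cells and -0.05 ± 0.39 in NG2 cells. Dvl2, which relays the signal from frizzled receptors, measured 3.80 ± 0.26 in O4 cells, 3.83 ± 0.13 in NG2/A2B5 cells and 3.90 ± 0.24 in NG2 cells, and Lef1, the nuclear partner of beta-catenin, 3.02 ± 0.08 in O4 cells, 3.17 ± 0.31 in NG2/A2B5 cells and 3.19 ± 0.10 in NG2 cells. The largest population difference among the 7 transducers was 0.19, that of Axin1 in O4 against NG2. A second Axin1 probe above background spread over 3.81 to 4.27, and a second Ctnnb1 probe was above background on 5 arrays.

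Of the Wnt receptors, Fzd3 measured 0.70 ± 0.32 in O4 cells, 0.69 ± 0.51 in NG2/A2B5 cells and 0.86 ± 0.38 in NG2 cells, and the co-receptor Lrp5 2.10 ± 0.16 in O4 cells, 2.18 ± 0.23 in NG2/A2B5 cells and 1.90 ± 0.20 in NG2 cells. Fzd10 did not overlap between O4 and NG2, at -0.36, -0.08 and -0.34 in O4, -0.65, -0.90 and -0.14 in NG2/A2B5, and -0.45, -1.05 and -0.77 in NG2, and was singled out after its values were seen. Its O4 minus NG2 difference was 0.49 (95% interval -0.07 to 1.06). Dkk3, a dickkopf family member, had 5 probes, of which the brightest measured -1.60 ± 0.73 in O4 cells, -1.52 ± 0.58 in NG2/A2B5 cells and -1.56 ± 0.29 in NG2 cells and the others were above background on 3 arrays at most.

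Among Notch ligands, Jag1 measured 2.81 ± 0.33 in O4 cells, 3.20 ± 0.09 in NG2/A2B5 cells and 2.94 ± 0.50 in NG2 cells, and Dll3 1.96 ± 0.71 in O4 cells, 1.72 ± 0.57 in NG2/A2B5 cells and 1.82 ± 0.49 in NG2 cells. Dll3, which is known to inhibit Notch within the cell that makes it, read highest on the III array of O4, at 2.78, and of NG2/A2B5, at 2.34. Dll1, a ligand that activates Notch on neighbouring cells, measured -1.83 ± 0.62 in O4 cells, -2.14 ± 0.31 in NG2/A2B5 cells and -1.77 ± 0.72 in NG2 cells and was above background on 5 of 9 arrays. A second Jag2 probe was above background on 4.

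Of the receptors, Notch1 measured 5.15 ± 0.40 in O4 cells, 5.23 ± 0.37 in NG2/A2B5 cells and 5.43 ± 0.36 in NG2 cells, and Notch3 4.95 ± 0.11 in O4 cells, 4.81 ± 0.18 in NG2/A2B5 cells and 4.79 ± 0.42 in NG2 cells. Notch2 measured -0.55, -1.16 and -1.65 in O4, -0.82, -0.67 and -0.57 in NG2/A2B5, and -0.83, -1.17 and -1.23 in NG2, with every NG2/A2B5 array above every NG2 array and a difference of 0.39 (95% interval -0.25 to 1.03). The coactivator Maml1 measured 4.22 ± 0.11 in O4 cells, 4.49 ± 0.13 in NG2/A2B5 cells and 4.36 ± 0.33 in NG2 cells, and its O4 arrays lay under its NG2/A2B5 arrays by -0.27 on average. Rbpj, the DNA-binding partner of cleaved Notch, measured -1.96 ± 1.28 in O4 cells, -1.78 ± 0.57 in NG2/A2B5 cells and -2.17 ± 0.81 in NG2 cells, above background on 7 arrays. Second probes of Notch3 and Maml1 were above background on 3 and 2 arrays.

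The other BMP and TGF-beta ligands varied more. Bmp2 measured -0.43, -1.09 and 0.26 in O4, 0.08, -0.63 and -0.55 in NG2/A2B5, and -1.2, -1.88 and 0.06 in NG2. Its lowest reading was NG2 II and its highest O4 I. Bmp4, the ligand best known for turning progenitors toward astrocytes, measured 0.40, -10.97 and -0.76 in O4, -0.17, -3.76 and -1.11 in NG2/A2B5, and -0.18, -2.0 and -0.78 in NG2, where the O4 II value stands for a reading at or below 0. Bmp4 read lowest on II in each population, with a III minus II difference of 5.59 (95% interval 0.63 to 10.55) that takes its size from that reading. Tgfb2 measured 1.75, 0.64 and 0.88 in O4, 2.04, 1.23 and 1.73 in NG2/A2B5, and 1.17, 1.11 and 1.21 in NG2, with each NG2/A2B5 array above each NG2 array by a narrow margin. Tgfb1 measured -2.43 ± 0.47 in O4 cells, -2.67 ± 0.60 in NG2/A2B5 cells and -2.43 ± 0.65 in NG2 cells, near background on 6 of 9 arrays, as was its second probe on 8.

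Among the receptors, Bmpr1a, a type I BMP receptor, measured 2.63 ± 0.10 in O4 cells, 2.80 ± 0.33 in NG2/A2B5 cells and 2.74 ± 0.28 in NG2 cells, and Bmpr2, the type II BMP receptor, 3.75 ± 0.47 in O4 cells, 4.25 ± 0.10 in NG2/A2B5 cells and 3.88 ± 0.32 in NG2 cells. Acvr2b, a type II activin receptor, measured 3.12 ± 0.46 in O4 cells, 3.23 ± 0.08 in NG2/A2B5 cells and 2.99 ± 0.13 in NG2 cells. A second Bmpr2 probe was above background on 8 arrays.

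Of the Smads, Smad3, which carries TGF-beta signals, measured 5.59 ± 0.16 in O4 cells, 5.59 ± 0.36 in NG2/A2B5 cells and 5.5 ± 0.10 in NG2 cells. Smad4, the partner shared by both branches, measured 4.83 ± 0.10 in O4 cells, 4.67 ± 0.09 in NG2/A2B5 cells and 4.63 ± 0.13 in NG2 cells, and Smad5, which acts with Smad1, 5.39 ± 0.24 in O4 cells, 5.11 ± 0.03 in NG2/A2B5 cells and 5.0 ± 0.46 in NG2 cells. The O4 arrays of Smad5 lay above its NG2/A2B5 arrays, the closest pair by a margin lost in rounding, with a difference of 0.28. The inhibitory Smad7 measured 0.81 ± 0.29 in O4 cells, 0.92 ± 0.46 in NG2/A2B5 cells and 0.86 ± 0.20 in NG2 cells. Second probes of Smad3 and Smad7 were above background on 8 and 7 arrays. Those of Smad4 and Smad5 were above it on every array, and the Smad4 pair gave O4 minus NG2 differences of 0.20 and -0.34.

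The BMP antagonist Grem1 measured 0.02 ± 0.07 in O4 cells, 0.01 ± 0.19 in NG2/A2B5 cells and -0.11 ± 0.30 in NG2 cells, the narrowest range of the antagonists. The differences of all 4 secreted BMP antagonists lay above 0 in O4 against NG2, with a median of 0.28, and in O4 against NG2/A2B5, with a median of 0.49. Over all genes 51.9% and 53.2% of differences lay above 0, and the medians were 0.02 and 0.02. None of the 4 passed in either, and Nog, with 1.63 and 1.13, was near background on 3 arrays. The smallest of the 4 differences was 0.02 in O4 against NG2, for Chrd, and 0.01 in O4 against NG2/A2B5, for Grem1. Both comparisons use the same O4 arrays.

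Wider lists of the same pathways were read in the same fits. Of 46 other Wnt components 35 were measured, of 40 other Notch components 32, and of 51 other BMP and TGF-beta components 40. Between populations 0 of them passed by limma in any comparison, where 0.00822% of all genes passed in O4 against NG2. At an unadjusted p under 0.05, O4 against NG2 gave 3 Wnt, 4 Notch and 2 BMP and TGF-beta genes (8% of all genes). The medians of the Wnt, Notch and BMP lists were -0.09, 0.03 and 0.03, against 0.02 over all genes. The smallest p-values belonged to Amhr2, the receptor of anti-Müllerian hormone, at 1.01 (adjusted p = 0.546), Bcl9l, a beta-catenin coactivator, at 0.56, and Mfap5, a microfibril protein, at 1.35, with an adjusted p of 0.566 each.

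In O4 against NG2/A2B5 the leading genes of these lists were Amhr2 at 0.79, Pofut1, which fucosylates Notch, at -1.93, and Rspo1, an enhancer of Wnt signalling, at 1.80, with adjusted p-values of 1.0 each. In NG2/A2B5 against NG2 they were Rspo1 at -2.46, Bcl9l at 0.48 and Dtx2, a Notch regulator, at 0.56, with adjusted p-values of 0.970 each. The mean of Rspo1, -3.08, and that of Pofut1, -2.39, lay near background.

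Between numerals III and II, 2 of 35 other Wnt genes, 2 of 32 Notch genes and 1 of 40 BMP and TGF-beta genes passed (3.55% of all genes). Psen2, a catalytic subunit of the gamma-secretase that cleaves Notch, was higher on III by 0.96 (adjusted p = 0.0257). Wif1, a secreted Wnt inhibitor, was higher by 1.39 (adjusted p = 0.0318), and Ltbp2, a matrix protein of the latent TGF-beta binding family, differed by -1.02 (adjusted p = 0.0253). The others, chosen for mention after their values were seen, were Hes5, a target of Notch, higher by 1.56 (adjusted p = 0.0373), and Porcn, the enzyme that acylates Wnts for secretion, higher by 0.77 (adjusted p = 0.0418).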

How the data were processed

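RNA of 9 samples was hybridised to 1-colour arrays after 2 rounds of amplification by in vitro transcription, per the labels' protocols. The deposited values are probe intensities scaled by the authors so that array medians lay at 1.05 to 1.07. No scanner software, background correction or scaling rule is given in the sources used here. Each array gave a value for 34926 to 34975 of 35129 probes. Values coded -9999 were treated as missing and values at or below 0 were set to the array's smallest positive value before log2.

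Of the probes, 16865 carried a single gene symbol, 165 several and 18099 none. The probe with the highest mean stood for its gene. Differences were tested with limma 3.58.1 (lmFit and eBayes, R 4.3.3) over all genes and all 9 arrays, populations without a block and numerals with a population term, with Benjamini-Hochberg adjustment over all genes and a threshold of 0.05. The code was tested on simulated data. Alternatives changed the scaling, floor, filter, probe rule, variance model, block and arrays. Genes named with values are those past the threshold, the 5 members with the smallest p in each population comparison and 3 in each numeral comparison, up to 3 genes of the wider lists a comparison, and a set list of pathway genes whatever their values. The members and lists were chosen with earlier results of these data known.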

Additional observations from a re-analysis of the deposited data

How the results depend on the processing

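Of 425 values of named members under alternatives, 384 kept their direction and side of the threshold, 17 passed it where they had not, 20 no longer passed and 4 reversed. The reversed values were Wnt4 in O4 against NG2/A2B5, at 0.14 with values raised to the 25th percentile, and, with the mean of a gene's probes, Acvr1 in O4 against NG2 at 0.26, Tgfbr1 in O4 against NG2/A2B5 at 0.11 and Bmp1 in III against I at -0.41. None of these passed the threshold before or after, and the mean takes in dimmer probes. The Wnt4 value is only the gap between the percentiles of the O4 and NG2/A2B5 arrays, since all its readings lay under them. With any 1 array left out, the count of members called was 0 in each population comparison and in the F test, 0 between II and I, 0 to 1 between III and I, and 0 to 1 between III and II, the 1 being Sfrp4 without the NG2/A2B5 III array. These fits hold fewer arrays. In the fit that called Sfrp4, the III readings left, those of O4 and NG2, were at or below 0 and had been set to the array's smallest positive value.

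Between numerals the counts moved with other settings as well. Between III and II, against 2 members and 432 genes, there were 8 members with values raised to the 25th percentile (1293 genes), 6 without genes under it (1217), 8 with trended robust variances (1887), 4 without the population term (492), 1 with the mean of a gene's probes (136) and 1 with every probe on its own (216). Chrd passed in all 7 of these settings, quantile normalization included, and Notch1 in 5. Between II and I, against 0 members and 28 genes, there were 4 with raised values (402 genes), 3 without low genes (365) and 3 with trended robust variances (833). Between III and I there were 1 with raised values, Bmp6 (49 genes), and 1 with trended robust variances, Bmp1 (311 genes). The setting without low genes also tests fewer genes. What moved the counts was not tested in any of these settings.

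Same-numbered arrays of different populations had deviations that correlated at 0.04 to 0.14 over 12025 genes, with 3 of 9 pairs over 0.1, against -0.11 to 0.01 for other pairs. Every same-numbered pair thus lay above every other pair. The correlations were low and no label ties a numeral to a culture, so the numerals were not taken to pair the samples. Each array correlated best with its own numeral, a hint from the data and not from the design. With the numeral as a fixed replicate block, 0 members were called in each population comparison and in the F test, and 0 with a random block in each population comparison. The fixed block together with trended robust variances gave 1 member in O4 against NG2, Dkk4 (adjusted p = 0.0440, 124 genes), 0 in O4 against NG2/A2B5, and 1 in NG2/A2B5 against NG2, Bmp7 (adjusted p = 0.0102, 95 genes), which was also the 1 called by the F test (101 genes). Over the other settings the adjusted p reached 0.738 for Dkk4 and 1.0 for Bmp7. With 3 arrays a population, the number of arrays limits the precision, and low readings near background limit it further for 24 of the 76 genes.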

Other observations

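Several members had more than 1 probe above background on every array, and their probes did not always move together. Among 9 such members the probes had differences of opposite sign in 5 for O4 against NG2, in 4 for O4 against NG2/A2B5 and in 5 for NG2/A2B5 against NG2. In O4 against NG2 these were Axin1, Bmp1, Notch4, Smad1 and Smad4, and only for Smad1 did the 95% intervals of both probes exclude 0.

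The brighter Smad1 probe exceeded the dimmer one by 0.73, 1.22 and 0.79 log2 units in O4 on arrays III, II and I, by 1.26, 1.27 and 1.23 in NG2/A2B5, and by 1.86, 2.09 and 2.16 in NG2. The gap was smaller on every O4 and NG2/A2B5 array than on any NG2 array. In a limma fit of this gap over 1888 genes with a pair of such probes, made after the Smad1 values were seen, the O4 minus NG2 difference was -1.12 (95% interval -1.53 to -0.72, adjusted p = 0.0815) with the second smallest p, and did not pass. The NG2/A2B5 minus NG2 difference was -0.78 (95% interval -1.19 to -0.38, adjusted p = 0.236). Where on the transcript each probe lies was not analysed here.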
